A study of Mus musculus with 2 samples.

Results

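Elastic fibre genes were followed through the single cells of small B16F10 tumours grown in mice with and without host Atf4. The members were chosen by name: elastin (Eln), the microfibril genes Fbn1, Mfap2, Mfap4 and Mfap5, the fibulins Fbln1, Fbln2 and Fbln5, and the crosslinking enzymes Lox and Loxl1, 10 of the 31053 genes listed in the files. They were picked with their difference between the genotypes in fibroblasts already known, so that difference is given as a description. B16F10 is a melanoma line of C57BL/6 mice, and Atf4 encodes a transcription factor of the integrated stress response. The Atf4wt/wt library and the Atf4D/D library each held cells from 2 small tumours pooled from male and female hosts of 11 weeks. Hosts of both genotypes carried a tamoxifen-inducible Cre under the Rosa26 promoter and received tamoxifen, so in Atf4D/D hosts the deletion was body-wide and was not limited to fibroblasts, whereas the injected melanoma cells kept their Atf4. The study asked what host ATF4 does in cancer-associated fibroblasts (CAFs). With 1 library per genotype there is no replicate, so no difference between genotypes could be tested, and each interval below is a 95% interval that covers counting error only.

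Elastic fibres let skin, vessels and lung recoil. In the textbook view, microfibrils built on fibrillin form a scaffold, tropoelastin is deposited on it with the help of fibulins, and lysyl oxidases crosslink the deposit. In skin most of this is laid down by fibroblasts before adulthood, and activated fibroblasts can make it again in wounds and tumours.

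Levels are unique molecular identifiers (UMIs, each standing for 1 captured RNA molecule) per 1000000 UMIs of the cells summed (CPM), from 3' tags. The libraries held 38417113 and 38290024 UMIs, and 3861 Atf4wt/wt and 3557 Atf4D/D cells passed the filters. CAF-like cells numbered 203 and 251, with a median of 3836 and 3732 UMIs. All 10 fibroblast markers were higher in them than in the other cells of their library, and the markers summed to 42368 and 31046 CPM against 124 and 90.3 CPM elsewhere. The libraries shared 10 barcodes, none of them among CAF-like cells. Atf4 itself read 251 CPM in Atf4wt/wt CAF-like cells (227 UMIs) and 56.0 CPM in Atf4D/D ones (60 UMIs), and in melanoma-like cells 221 and 209 CPM. The library labelled Atf4wt/wt did not match its label of pooled sexes: a Y-linked transcript was found in 0 of 1774 host cells, which allows a share of up to 0.169%, against 214 of 1296 host cells (16.5%) in Atf4D/D. Over all cells, this difference and the genotype cannot be told apart. The ratios of the members over all CAF-like cells are therefore also given for Xist-only cells. These are the CAF-like cells that had Xist RNA but lacked any Y-linked UMI (167 in Atf4wt/wt and 66 in Atf4D/D). The later results by marker gate, by cluster of CAF-like cells, by Eln UMI and for related genes were not split in this way. In CAF-like cells the 8 macrophage markers summed to 663 and 283 CPM, the 7 melanoma markers to 1972 and 1293 CPM and the 5 erythroid markers to 386 and 0 CPM, and their part in the results was not tested beyond the free RNA estimate given below.

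Across the 10 members in CAF-like cells, elastin and the microfibril protein gene Mfap4 were far lower in Atf4D/D, Mfap2 was about 2.25-fold lower, and the scaffold gene Fbn1 was almost level. Lox and Fbln2 were higher. Of the 10 members 3 were at least 2-fold lower in Atf4D/D (Eln, Mfap4 and Mfap2) and 0 at least 2-fold higher, where 5.91% of the 7963 genes with at least 20 UMIs were 2-fold lower and 4.37% were 2-fold higher. The median log2 ratio of Atf4D/D over Atf4wt/wt was -0.54 over the members and -0.05 over all those genes. Since this contrast guided the choice of members, nothing is read from these counts.

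**Figure D1:**
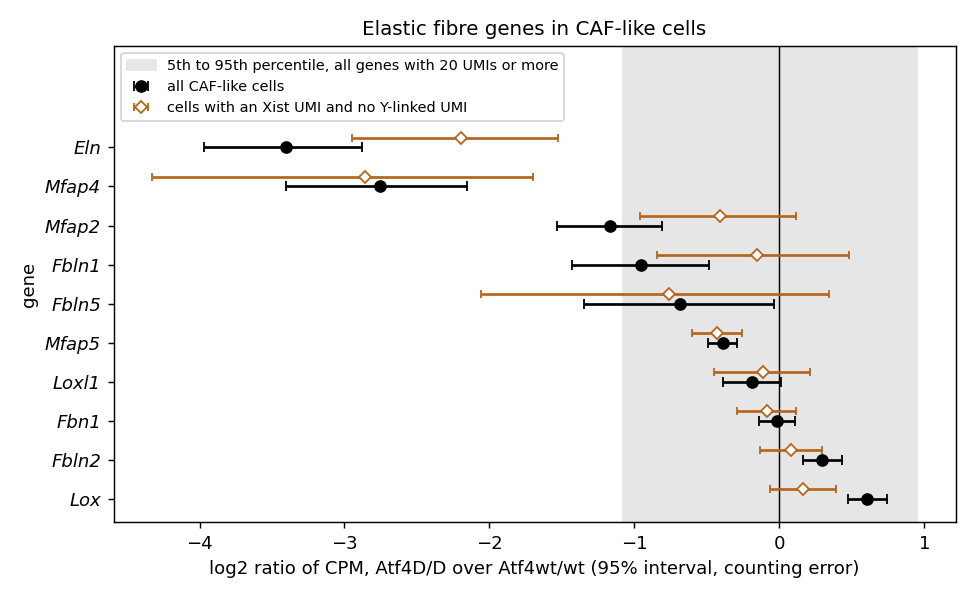
Log2 ratio of CPM in CAF-like cells, Atf4D/D over Atf4wt/wt (x axis), for each of the 10 genes (y axis), with 95% counting intervals as bars. Filled points are all CAF-like cells, open diamonds the Xist-only cells, and the grey band spans the 5th to 95th percentile of all genes with 20 UMIs or more; Eln and Mfap4 lie outside the band in both sets of cells.

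Elastin, the rubber-like core of the fibre (Eln, ENSMUSG00000029675, GRCm38 chr5:134702593-134747323, minus strand), gave 295 UMIs in Atf4wt/wt CAF-like cells and 33 in Atf4D/D ones. These are levels of 326 CPM (290 to 365) and 30.8 CPM (21.2 to 43.3), 10.6-fold lower in Atf4D/D with an interval of 7.36 to 15.7. The log2 ratio was -3.40 (-3.97 to -2.88). In Xist-only cells the levels were 357 and 78.0 CPM (282 and 19 UMIs), a log2 ratio of -2.19 (-2.95 to -1.52), so the difference kept its direction and was smaller. The 54 Atf4D/D cells with Y-linked but without Xist RNA held 6 Eln UMIs, or 18.4 CPM. The 131 Atf4D/D cells with neither RNA held 8, or 16.0 CPM. In Atf4wt/wt the 36 cells with neither held 13 Eln UMIs (112 CPM), so there too Eln read lower where Xist was not detected. The part of Xist detection itself in the smaller difference was not tested.

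Elastin RNA was concentrated in few cells. In Atf4wt/wt, 64 of 203 CAF-like cells had an Eln UMI (31.5%), and the highest cells held 62, 43, 17, 15 and 14 UMIs. The first 2 of these gave 35.6% of all Eln UMIs of the class, and the 10 highest gave 64.1%. In Atf4D/D, 27 of 251 cells had an Eln UMI (10.8%), the highest cells held 4, 3 and 2 UMIs, and the other 24 held 1. No Atf4D/D cell reached 5 Eln UMIs, a level that 16 Atf4wt/wt cells reached. The cell with 62 Eln UMIs had 4271 UMIs in all, 99 of them Col1a1, and the cell with 43 had 4111 UMIs; neither was called a doublet. Without the highest 10 cells of each library the log2 ratio was -2.91 (-3.75 to -2.17), against -3.40 with them.

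To set depth aside, each cell was thinned to 2000 UMIs, which left out 25 Atf4wt/wt and 41 Atf4D/D CAF-like cells. Eln was then found in 43 of 178 cells (24.2%, exact binomial interval 18.1 to 31.1) and in 17 of 210 cells (8.10%, 4.79 to 12.6). In macrophage-like cells, which should lack elastin and had a median of 2454 and 2512 UMIs, the thinned share was 0.178% and 0%, below the shares of CAF-like cells of either genotype.

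**Figure D2:**
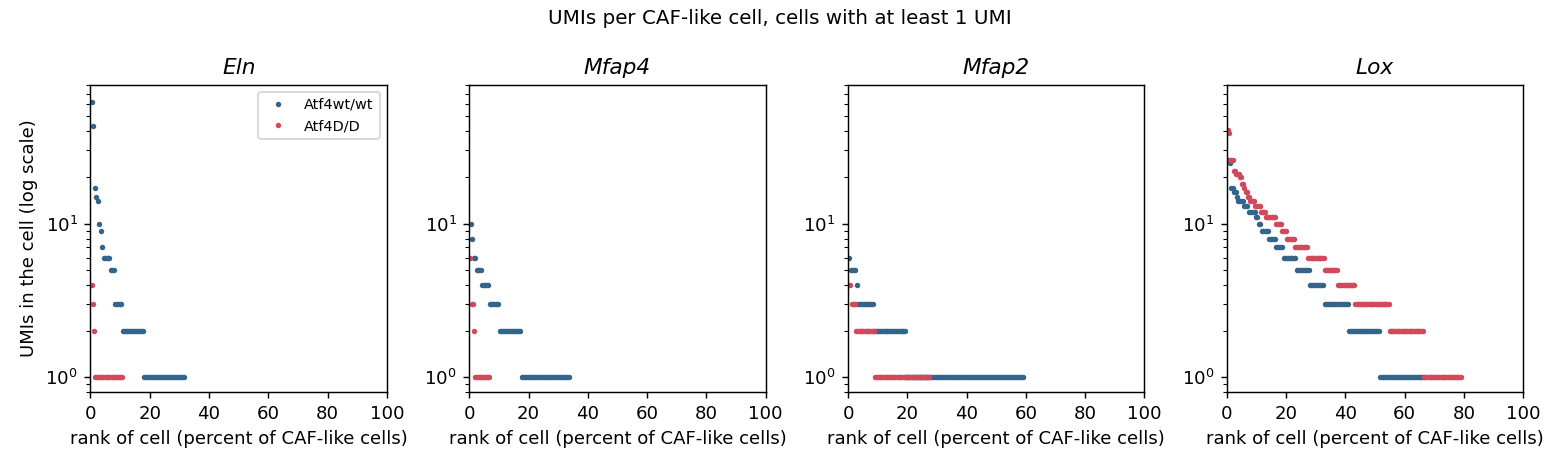
UMIs per CAF-like cell (y axis, log scale) against the rank of the cell as a percent of the CAF-like cells of its library (x axis), for Eln, Mfap4, Mfap2 and Lox; each point is 1 cell with at least 1 UMI. The Eln points of Atf4wt/wt start at 62 UMIs and those of Atf4D/D at 4, while the Lox points of Atf4D/D run above those of Atf4wt/wt.

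The microfibril genes split. Fbn1, which encodes fibrillin-1, the backbone of the microfibril (chr2:125300594-125507993, minus strand), read 1079 CPM (977 UMIs) in Atf4wt/wt and 1066 CPM (1142 UMIs) in Atf4D/D, a log2 ratio of -0.02 (-0.14 to 0.11). By counting error alone, the level in Atf4D/D could lie between 1.10-fold lower and 1.08-fold higher. Mfap5, whose product binds fibrillin (chr6:122505845-122529290, plus strand), read 1888 and 1439 CPM, a log2 ratio of -0.39 (-0.49 to -0.29). Mfap2, which encodes the microfibril protein MAGP1 (chr4:141010418-141015984, plus strand), read 208 CPM (188 UMIs) and 92.4 CPM (99 UMIs), 2.25-fold lower (1.75 to 2.89). After thinning, 37.6% of Atf4wt/wt and 18.1% of Atf4D/D cells held a Mfap2 UMI. In Xist-only cells, however, Mfap2 read 201 and 152 CPM and its log2 ratio of -0.41 had an interval that reached 0 (-0.96 to 0.12).

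Mfap4, a fibrinogen-like protein that binds elastin and fibrillin (chr11:61485431-61488900, plus strand), was the member next to Eln in its difference. It gave 154 UMIs (170 CPM, 144 to 199) in Atf4wt/wt and 27 UMIs (25.2 CPM, 16.6 to 36.7) in Atf4D/D, 6.75-fold lower (4.46 to 10.6). It was less concentrated than Eln in Atf4wt/wt, where 68 of 203 cells held a UMI, with at most 10 in a cell and 37.7% of the UMIs in the 10 highest cells; 17 of 251 Atf4D/D cells held one, 1 of them with 6. In Atf4D/D the 10 highest cells held 74.1% of the Mfap4 UMIs, against 48.5% of those of Eln. Without the 10 highest cells of each library the log2 ratio of Mfap4 was -4.05 (-5.40 to -2.95). That step took out 20 of the 27 Atf4D/D UMIs but 58 of the 154 Atf4wt/wt UMIs. The lower ratio thus follows in part from the step itself and rests on few Atf4D/D UMIs. In Xist-only cells the log2 ratio was -2.86 (-4.33 to -1.70), close to the -2.75 of all CAF-like cells.

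The fibulins, which help elastin settle on the scaffold or bind it, also differed among themselves. Fbln2 (chr6:91212455-91272540, plus strand) read 884 CPM (801 UMIs) in Atf4wt/wt and 1087 CPM (1164 UMIs) in Atf4D/D, 1.23-fold higher (1.12 to 1.35), and its log2 ratio was 0.08 (-0.14 to 0.30) in Xist-only cells. Fbln1 (chr15:85205949-85286535, plus strand) read 114 CPM (103 UMIs) and 58.8 CPM (63 UMIs), 1.93-fold lower (1.40 to 2.69), but 119 and 107 CPM in Xist-only cells, where the log2 ratio was -0.16 (-0.84 to 0.48). Fbln5, the fibulin tied most closely to elastin assembly (chr12:101746565-101819055, minus strand), gave 49 and 36 UMIs (54.1 and 33.6 CPM). Its log2 ratio was -0.69, with an interval that ended just below 0 (-1.35 to -0.04). In Xist-only cells the log2 ratio of Fbln5 was -0.76 with an interval that reached 0 (-2.06 to 0.34), from 44 and 8 UMIs. The free RNA that melanoma pigment genes pointed to, 16.8% and 14.0% of the UMIs of CAF-like cells if its make-up was that of the whole library, would by itself give 20.1 and 15.6 Fbln5 UMIs there, 41.0% and 43.4% of those counted. For Eln, Fbn1, Fbln2, Mfap2, Mfap4, Mfap5, Lox and Loxl1 that estimate was under 1% of the UMIs, and for Fbln1 8.63% and 9.71%.

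Lysyl oxidase (Lox), which crosslinks elastin and collagen, went the other way. It gave 712 UMIs (786 CPM) in Atf4wt/wt and 1283 UMIs (1198 CPM) in Atf4D/D, 1.52-fold higher (1.39 to 1.67), and after thinning it was found in 53.9% and 71.4% of cells. Within the Atf4D/D library Lox read 899 CPM in Xist-only cells and 1471 CPM in cells with Y-linked but without Xist RNA. Atf4D/D cells with neither RNA read 1165 CPM. Against the Xist-only cells of Atf4wt/wt (803 CPM), the log2 ratio was 0.16 (-0.07 to 0.39) for the Xist-only cells of Atf4D/D. It was 0.87 (0.70 to 1.05) for those with Y-linked but without Xist RNA and 0.54 (0.37 to 0.70) for those with neither. Loxl1, the lysyl oxidase that acts on elastin above all (chr9:58287738-58313186, minus strand), read 453 and 398 CPM, a log2 ratio of -0.19 whose interval just reached 0 (-0.39 to 0.01).

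The 10 genes were then followed through 7 marker gates of CAF-like cells. A cell was put in a gate if it had a UMI of at least 2 of the gate's genes, and a cell could be in several: 127 Atf4wt/wt and 132 Atf4D/D cells were, and 17 and 32 were in none. The vascular gate (Rgs5, Notch3 and others, 23 and 18 cells) and the contractile gate (Acta2, Myh11 and others, 7 and 16 cells) were small. The adventitial gate (Pi16, Clec3b, Dpp4 and others) held 51 and 61 cells, the matrix gate (Smoc2, Omd, Svep1, Cxcl14 and others) 121 and 81, the activated gate (Lrrc15, Il1rl1, Tnc, Fap and others) 98 and 122, the hypoxic gate (Pgf, Slc2a1, Ndrg1 and others) 40 and 90, and the cycling gate (Mki67, Top2a and others) 56 and 46. The gates hold cells close to the threshold: 51 of the 121 and 53 of the 81 matrix cells had exactly 2 of its genes. Of macrophage-like cells, 8.64% and 13.9% passed the hypoxic gate and 14.7% and 13.6% the cycling gate, and at most 0.710% passed any other.

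In Atf4wt/wt, elastin was highest in the adventitial and matrix gates. It read 580 CPM in adventitial and 466 CPM in matrix cells, against 296 CPM in activated, 176 CPM in cycling and 64.5 CPM in hypoxic cells. Matrix cells stood 6.07-fold above the cells outside that gate, and hypoxic cells read 64.5 CPM where the cells outside that gate read 424 CPM. In Atf4D/D the levels were 41.2, 46.3, 16.9, 15.3 and 12.5 CPM in the same order of gates, each lower than in Atf4wt/wt. The cells with 62 and 43 Eln UMIs weigh on these levels: without the 2 highest cells of each library, matrix cells read 289 and 30.8 CPM, activated cells 181 and 12.4 CPM and adventitial cells 391 and 41.2 CPM. Cycling cells then read 176 and 6.22 CPM, the latter from 2 UMIs. The log2 ratios without these cells were -3.23 in matrix, -3.87 in activated, -3.24 in adventitial and -4.83 in cycling cells. With all cells kept, the log2 ratios of the larger gates ran from -4.13 (-5.16 to -3.25) in activated cells to -2.37 (-4.01 to -0.94) in hypoxic cells. The matrix gate took up 59.6% of Atf4wt/wt and 32.3% of Atf4D/D CAF-like cells. Outside it Eln still read 76.7 and 20.3 CPM (25 and 13 UMIs), 3.77-fold lower in Atf4D/D. In cells of the matrix gate and no other gate, 28 Atf4wt/wt and 13 Atf4D/D cells, the direction was the opposite, 171 and 223 CPM from 18 and 8 UMIs, with a log2 ratio of 0.38 (-1.03 to 1.65). In cells of the adventitial gate alone, 17 and 23 cells, Eln read 168 and 124 CPM from 8 and 7 UMIs, a log2 ratio of -0.44 (-2.13 to 1.22). Both intervals reached 0 and lay above those of the whole gates. These were -3.33 (-4.07 to -2.68) in matrix and -3.81 (-4.80 to -2.96) in adventitial cells. The cause of this departure was not tested. Vascular cells gave 6 and 1 Eln UMIs and contractile cells 2 and 0, too few to compare.

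In Atf4wt/wt, Mfap4 had the same order of gates as Eln. It read 265 CPM in adventitial, 200 CPM in matrix, 151 CPM in activated, 137 CPM in cycling and 80.7 CPM in hypoxic Atf4wt/wt cells. In Atf4D/D it read 30.9, 50.9, 26.1, 18.3 and 2.08 CPM, the last from 1 UMI in 90 hypoxic cells. Outside the matrix gate Mfap4 was at 117 and 7.83 CPM (38 and 5 UMIs), and 22 of its 27 Atf4D/D UMIs lay in matrix cells. In cells of the matrix gate alone it read 124 and 111 CPM from 13 and 4 UMIs, a log2 ratio of -0.15 (-2.22 to 1.55), against -1.98 (-2.70 to -1.31) for the whole gate. Mfap2 was lower in Atf4D/D in each of the 5 larger gates, with log2 ratios from -1.50 in cycling to -0.91 in matrix cells.

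Fbn1 kept its pattern over the gates in both genotypes. Adventitial cells read 1826 and 1715 CPM, 2.17-fold and 2.08-fold above the cells outside that gate, and hypoxic cells read 678 and 777 CPM. Its log2 ratio lay between -0.34 and 0.20 in the 5 larger gates. Fbln2 was 2.16-fold higher in adventitial cells than outside them in Atf4wt/wt and 1.19-fold in Atf4D/D. Adventitial cells read 1493 and 1227 CPM of it, and the cells outside that gate 690 and 1034 CPM.

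Lox was highest in the hypoxic gate of Atf4D/D and in the adventitial gate of Atf4wt/wt (1191 CPM). It read 948 CPM in hypoxic Atf4wt/wt cells and 1559 CPM in hypoxic Atf4D/D cells, a log2 ratio of 0.72 (0.50 to 0.93). The hypoxic gate held 19.7% of Atf4wt/wt and 35.9% of Atf4D/D CAF-like cells. Outside it Lox read 725 and 903 CPM, a log2 ratio of 0.32 (0.14 to 0.50). Fbln2 behaved alike, with 904 and 1289 CPM inside the hypoxic gate (log2 ratio 0.51, 0.29 to 0.74) and 877 and 922 CPM outside it (0.07, -0.10 to 0.24).

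**Figure D3:**
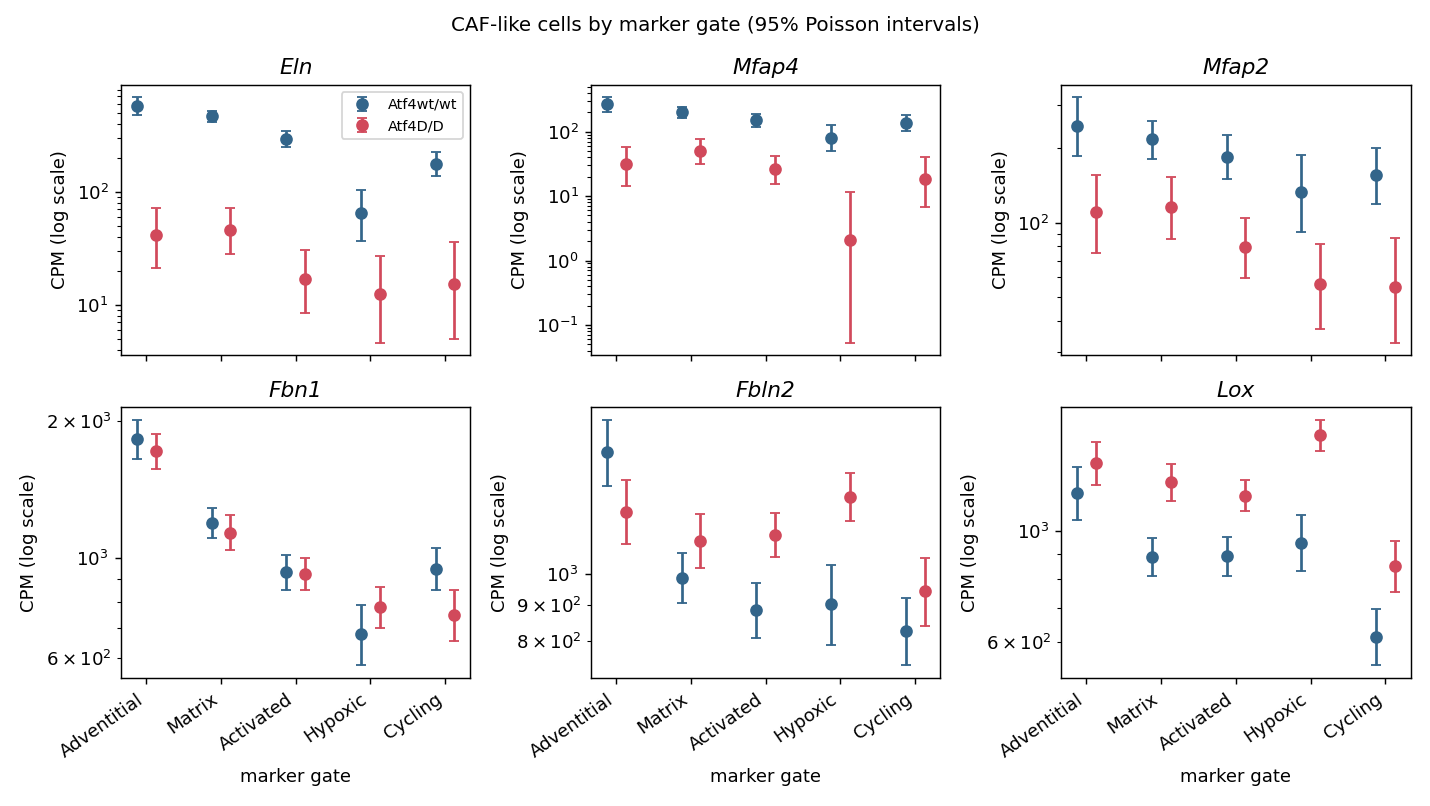
CPM of 6 elastic fibre genes (y axes, log scale, a different range in each panel) in CAF-like cells of the 5 marker gates with at least 20 cells in each library (x axis); points are summed levels and bars 95% Poisson intervals. Eln and Mfap4 lie lower in Atf4D/D in every gate shown, Fbn1 overlaps or nearly so, and Lox reads 1559 CPM in hypoxic Atf4D/D cells.

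Clusters found without any of these genes gave a like picture. Re-clustering split the CAF-like cells into 5 groups. In the group led by Cxcl13, Saa3, Pi16 and Ptx3 (36 Atf4wt/wt and 61 Atf4D/D cells) Eln read 1006 and 74.6 CPM, Mfap4 348 and 9.95 CPM, and Fbn1 2013 and 2050 CPM. In the group led by Mgp, Cxcl14 and Serpine2 (80 and 65 cells) Eln read 386 and 43.8 CPM and Mfap4 205 and 69.4 CPM. A group led by Slc2a1, Lgals3 and Dusp4 held 36 Atf4D/D cells and 0 Atf4wt/wt cells, and gave 0 Eln, 0 Mfap4 and 1 Mfap2 UMIs, 15 Fbn1 UMIs (206 CPM) and 49 Lox UMIs (672 CPM). A further group was led by Lyz2, Pmel and Dct, genes of myeloid and pigment cells (40 and 59 cells), where Eln read 201 and 6.08 CPM. In each of the 4 groups with cells of both libraries Eln, Mfap4 and Mfap2 were lower and Lox higher in Atf4D/D.

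Cells with elastin RNA were richer in several other members. At 2000 UMIs per cell, the 43 Atf4wt/wt cells with an Eln UMI read 372 CPM of Mfap4 against 107 CPM in the 135 cells without (log2 ratio 1.79, 1.02 to 2.57), 1558 against 952 CPM of Fbn1, and 2849 against 1719 CPM of Mfap5, whereas Col1a1 read 12221 and 11485 CPM. In the 17 Atf4D/D cells with an Eln UMI, Fbn1 was at 2235 CPM against 964 CPM in the other 193, and Col1a1 was higher too, at 12235 against 7415 CPM. Mfap2 and Mfap5 were also higher there (log2 ratios 2.27 and 0.81). Mfap4 (1.51, -0.96 to 3.39), Fbln1 and Loxl1 read higher with intervals that reached 0. Lox (912 against 1269 CPM, -0.48, -1.05 to 0.05), Fbln2 (1147 against 1184 CPM) and Fbln5 read lower, also with intervals that reached 0. Over single CAF-like cells (203 and 251), the genes whose log levels ran most like those of Eln, by the mean of Pearson's r in the 2 libraries among genes with at least 200 UMIs, were Col14a1 (r = 0.37 in Atf4wt/wt and 0.28 in Atf4D/D), Serping1 (0.30 and 0.31), Gsn (0.25 and 0.36), Fbn1 (0.30 and 0.31) and Ly6a (0.29 and 0.29). These r are weak, the counts are sparse, and the cells of a library share its depth and capture, so they are a description.

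Other genes of the fibre, taken from related lists, differed in both directions. Of 11 measured microfibril and fibulin relatives 4 were at least 2-fold lower in Atf4D/D (Fbn2, Ltbp1, Ltbp4 and Fbln7) and 0 at least 2-fold higher. For this and the lists that follow, the shares among all 7963 genes were 5.91% lower and 4.37% higher. Fbn2, the fibrillin of developing tissue, read 145 and 39.2 CPM (131 and 42 UMIs, log2 ratio -1.88, -2.42 to -1.37), and Ltbp2 read 36.4 and 70.9 CPM (33 and 76 UMIs, 1.95-fold higher). Of 7 genes of crosslinking and its activation 1 was 2-fold lower: Postn, which encodes the matrix protein periostin, at 2153 and 837 CPM (log2 ratio -1.36). Bmp1, the protease that activates lysyl oxidases, read 276 and 340 CPM (0.30, 0.06 to 0.54). None of the 6 elastin receptor genes reached 2-fold, Itgb5 being the lowest at -0.91 (-1.35 to -0.47) and Itgb3 the highest at 0.12. Among 9 elastases and their inhibitors 1 was 2-fold lower: Ctss, a cathepsin, gave 44 and 14 UMIs (log2 ratio -1.89), and the 8 macrophage markers were lower in the same cells as well (663 and 283 CPM), whose part in it was not tested. Mmp9, a gelatinase that cuts elastin, was the highest of that list and just short of 2-fold higher (36.4 and 72.8 CPM, 33 and 78 UMIs). All 5 fibrillar collagens were below 0, from -0.71 for Col5a1 to -0.39 for Col3a1, with 0 at 2-fold, so Eln and Mfap4 differed more than any of them.

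Outside fibroblasts the members divided into 8 genes of CAF-like cells and 2 that melanoma cells share. Eln, Fbn1, Fbln2, Mfap2, Mfap4, Mfap5, Lox and Loxl1 were 107-fold to 2069-fold higher in CAF-like cells than in all other cells of their library. The highest of these, for Mfap4 in Atf4wt/wt, rests on 2 UMIs outside CAF-like cells and has an interval of 563 to 17237. With CAFs taken by marker genes without clusters, the log2 ratio of the same 8 genes ran from 6.196 to 8.49, and it was 7.67 for Mfap4 in Atf4wt/wt (11.0 by clusters) and 6.39 for Lox in Atf4D/D (9.69 by clusters). CAF-like cells held 89.9% of all Eln UMIs in the cells of Atf4wt/wt and 82.5% in Atf4D/D. Endothelial-like cells had the next highest Eln level in CPM, while in Atf4D/D melanoma-like cells held more of the Eln UMIs (5, or 12.5%). Endothelial-like cells gave 19 Eln UMIs in Atf4wt/wt (45.4 CPM, 10 of the UMIs in 1 cell) and 2 in Atf4D/D (15.9 CPM), 53 and 9 Fbln2 UMIs (127 and 71.4 CPM), and 37 and 6 Fbln5 UMIs (88.5 and 47.6 CPM). These cells also held Col1a1 (765 and 238 CPM), which fibroblasts make. Had the members come with collagen RNA in the ratio of CAF-like cells, 8.97 Eln, 24.3 Fbln2, 52.0 Mfap5 and 1.49 Fbln5 UMIs would be found in Atf4wt/wt endothelial-like cells, against 19, 53, 23 and 37 counted. There were 86 Atf4wt/wt and 28 Atf4D/D endothelial-like cells, and the log2 ratio of Fbln5 between genotypes was -0.90 with an interval that reached 0 (-2.43 to 0.36). In dendritic-like and monocyte-like cells Eln and Mfap4 were at 0, and macrophage-like cells gave 4 and 0 Eln UMIs from 845 and 624 cells.

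**Figure D4:**
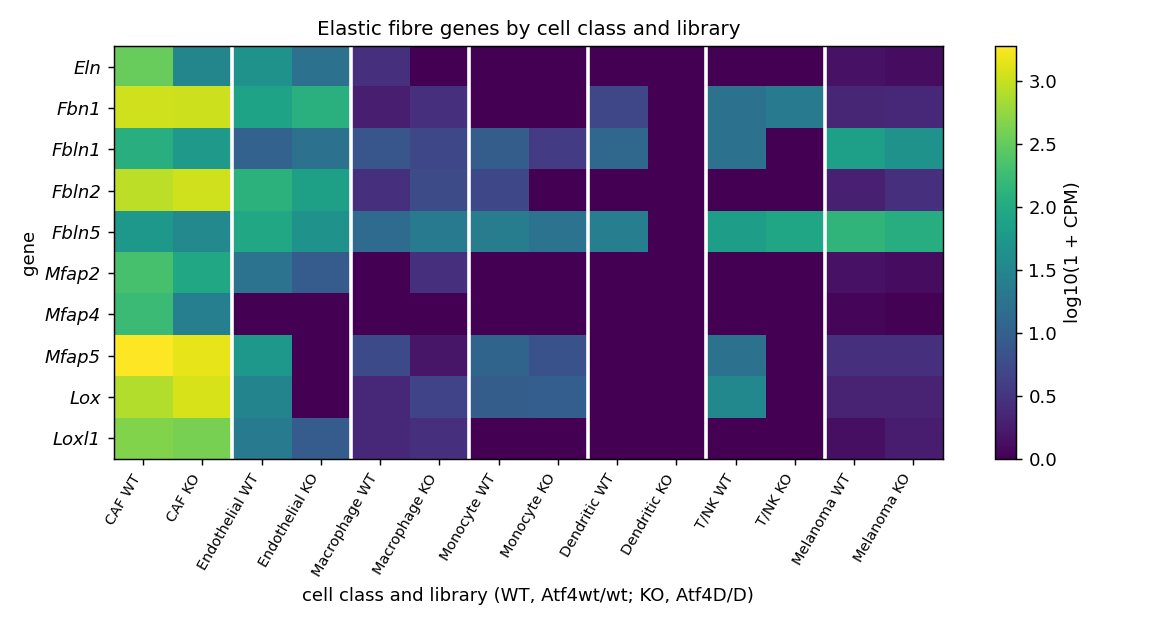
Heat map of log10(1 + CPM) for the 10 genes (rows) in 7 cell classes of each library (columns; WT is Atf4wt/wt, KO is Atf4D/D). Within each library the CAF column is the brightest for every gene but Fbln5, and Fbln1 and Fbln5 are also bright in the melanoma columns; a T/NK or dendritic square can rest on 1 UMI.

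Fbln5 and Fbln1 were also genes of the tumour cells. In melanoma-like cells (1526 and 1583) Fbln5 gave 2595 UMIs (140 CPM, 134 to 145) in Atf4wt/wt and 1960 UMIs (107 CPM, 103 to 112) in Atf4D/D hosts, and these cells held 86.1% and 83.5% of all Fbln5 UMIs. CAF-like cells read lower than all other cells, by 2.25-fold in Atf4wt/wt and 2.84-fold in Atf4D/D. Fbln1 gave 1300 and 856 UMIs in melanoma-like cells (69.9 and 46.9 CPM), 85.6% and 81.7% of its UMIs, while its level was 1.96-fold and 1.45-fold higher in CAF-like than in all other cells. At 2000 UMIs per cell 22.7% and 17.3% of melanoma-like cells held Fbln5, against 1.78% and 4.22% of macrophage-like cells.

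Both fibulins were lower in melanoma-like cells of Atf4D/D hosts, where Atf4 itself read 221 and 209 CPM. The log2 ratio was -0.38 (-0.46 to -0.29) for Fbln5 and -0.58 (-0.70 to -0.45) for Fbln1. It was below 0 in each of the 4 melanoma-like clusters with at least 20 cells in both libraries, from -0.50 to -0.25 for Fbln5 and from -0.75 to -0.33 for Fbln1. These clusters come from the same 2 libraries and are not replicates. No share over all genes of melanoma-like cells is given beside them. In a cluster without a name led by Espn, Car9 and Ero1l (191 and 311 cells) Fbln5 read 150 and 88.1 CPM, a log2 ratio of -0.77 (-1.02 to -0.51). Fbln1 read 47.4 and 35.9 CPM in that cluster, and its interval reached 0 (-0.40, -0.83 to 0.03).

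**Figure D5:**
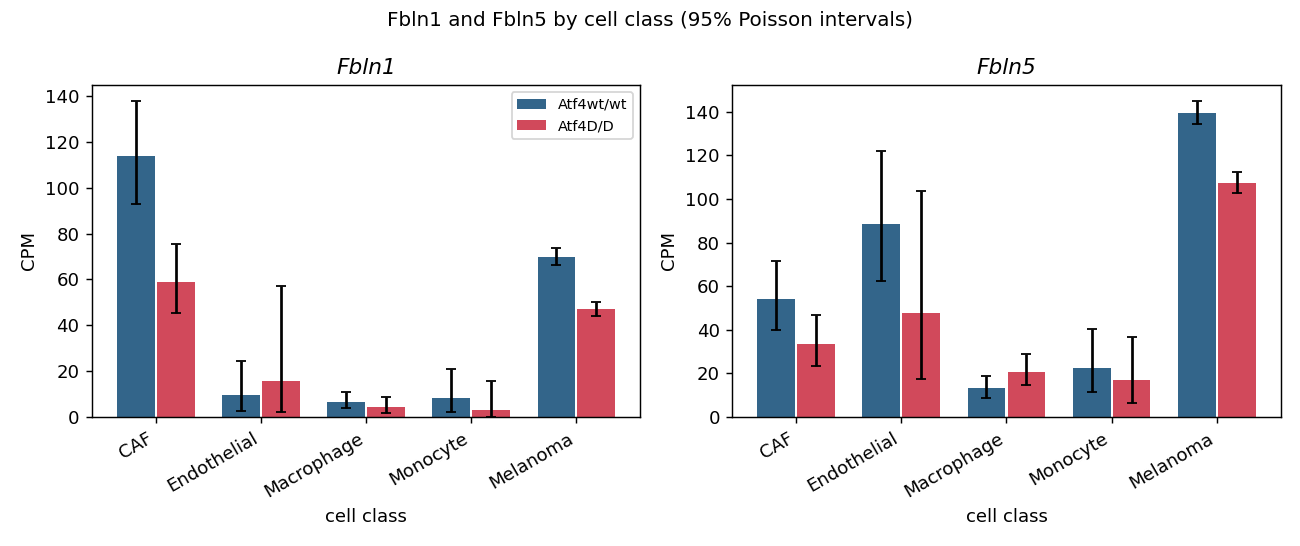
CPM of Fbln1 and Fbln5 (y axes) in 5 cell classes (x axis) of Atf4wt/wt and Atf4D/D, with 95% Poisson intervals as error bars. Fbln5 is highest in melanoma-like cells (140 and 107 CPM), and Fbln1 reads 114 and 58.8 CPM in CAF-like cells.

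Since ATF4 binds DNA at a C/EBP-ATF composite element, the promoters of members were searched for its letters, TGATGNAAN, on both strands in RefSeq windows of 300 bases around gene starts (GRCm38.p6). The 8 windows searched belong to 5 members (Fbn1, Mfap2, Fbln1, Fbln2 and Fbln5). A match was found in 1 window, of Fbln5, and 3.95% of all 32851 promoter windows hold one. The cAMP response element, TGACGTCA, was in none of the 8 and in 1.79% of all windows. The Fbln5 match, TGATGCAAT, lies at chr12:101818600-101818608, 124 bases before a RefSeq start site, and in no annotated exon: 2 of the 3 GENCODE transcripts of Fbln5 span it as intron. Fbln5 is shown because it alone holds the match, which is in capitals, and Mfap2 because it is the member with a searched window that was lowest in Atf4D/D. Both are given 5′ to 3′ on the gene's strand without GENCODE exon sequence, Fbln5 from chr12:101818469-101818733 (minus strand) and Mfap2 from chr4:141010174-141010417 (plus strand). The 3′ end of the Fbln5 stretch runs past its RefSeq start site at chr12:101818484.
Fbln5: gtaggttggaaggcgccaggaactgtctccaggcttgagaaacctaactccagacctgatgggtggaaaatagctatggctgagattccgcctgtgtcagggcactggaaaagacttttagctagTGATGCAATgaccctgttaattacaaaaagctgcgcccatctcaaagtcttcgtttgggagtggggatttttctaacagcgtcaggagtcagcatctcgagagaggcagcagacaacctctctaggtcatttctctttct
Mfap2: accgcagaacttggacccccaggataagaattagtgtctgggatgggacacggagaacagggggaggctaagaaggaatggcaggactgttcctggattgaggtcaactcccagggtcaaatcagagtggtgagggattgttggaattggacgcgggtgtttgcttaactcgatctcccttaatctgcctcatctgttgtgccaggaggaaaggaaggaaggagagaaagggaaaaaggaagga
The match says only that these letters are present, and their absence from the Mfap2 window says nothing of ATF4 at that gene.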

How the data were processed

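Raw UMI counts were deposited per gene and barcode for both libraries; the authors made them from 10x Genomics 3' reads with Cell Ranger 3.1.0 on GRCm38 and named Seurat 3.2.1 for later steps. The labels name the V3 chemistry and the study's methods V2. With Seurat 5.3.0 (R 4.3.3), cells with 200 to 5000 genes and at most 7.5% mitochondrial UMIs were normalised, integrated and clustered on 2000 variable genes (15 components, resolution 0.8). The members, related lists, gate genes and mitochondrial genes were left out of the variable genes. A cluster took the class whose markers had the highest mean fold, with at least 3 markers in over 5% of its cells; mixed clusters were split once, and some stayed unnamed. Doublets called by Scrublet (scanpy 1.11.5), 4 and 2 among CAF-like cells, were kept and removed in an alternative. Counts were summed per class and library and divided by the summed UMIs; ratios have exact conditional binomial intervals, levels exact Poisson intervals and shares exact Clopper-Pearson intervals. A count of 0 was set to 3 in a ratio, and none is given where both counts are at or under 3. Of these, only the ratios and their intervals were tried on simulated data, with Poisson counts for genes with at least 200 UMIs. Such counts carry the same counting error that the intervals assume. Single cells are not replicates, so no test across them was run. Named beside the members were, of each related list, the genes with at least 50 UMIs and the lowest and highest ratio, and the 5 genes most like Eln. Fbln7, Ltbp1 and Ltbp4, the lead cells, sub-clusters and groups by Eln UMI were picked after their values were seen. The members, lists, gates and tests were chosen with earlier results of these data known. Alternatives covered filters, clustering, scaling, free RNA, sex and single cells.  Promoters are from RefSeq and gene positions from GENCODE M21; Eln, Mfap4, Mfap5, Lox and Loxl1 had no promoter used here.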

Additional observations from a re-analysis of the deposited data

How the results depend on the processing

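The Eln log2 ratio kept its direction under all 15 alternatives, from -3.45 (free RNA subtracted) to -2.19 (Xist-only cells), the only 1 outside the interval of the reported value. The median of the members ran from -0.62 to -0.28. Members at least 2-fold lower numbered 2 in Xist-only cells and 4 with CAFs taken by marker genes without clusters (178 and 181 cells), with free RNA subtracted, or without the 10 highest cells per gene, and 3 otherwise. The share of Atf4wt/wt CAF-like cells with an Eln UMI was 16.5% at 1000 UMIs per cell and 31.5% without thinning. Among gate values whose interval did not reach 0, 10 turned direction. With 3 genes per gate these were Mfap4 (0.098) and Lox (-0.60) in vascular cells. In cells of 1 gate alone they were Eln (0.38), Fbln1 (0.23) and Mfap5 (0.15) in matrix, Mfap5 (0.32) in hypoxic, and Fbn1 (0.15) and Mfap5 (0.57) in cycling cells. Mfap5 in adventitial cells was at 0.012 when gated at 2000 UMIs, and Loxl1 of the activated gate at 0.041 in the sub-cluster with most of its cells. The cause was not tested. Of the remaining gate, class and gene values, 429 stayed within the interval of the reported value and 94 left it without such a turn. Removal of the 10 highest cells, and of the 2 highest Eln cells in the gates, was chosen after seeing the data. No paired analysis was possible because there was a single library per host genotype. Depth limits Fbln5 and every gate with few cells.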

Other observations

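Barcodes that the cell filter left out numbered 2443 in Atf4wt/wt and 1917 in Atf4D/D. They entered the comparisons above only through the free RNA estimate, doublet calling and the alternatives with looser filters. They held 37 and 8 Eln UMIs, 2.81 and 0.61 CPM, a log2 ratio of -2.19 (-3.50 to -1.07). Per 1000 UMIs of Col1a1, Col1a2 and Col3a1 in the same barcodes these were 11.4 and 3.40, a log2 ratio of -1.75 (-3.06 to -0.62). Lox gave 53 and 92 UMIs there (log2 ratio 0.81, 0.31 to 1.33), and Mfap4 gave 8 and 2. Mfap2 gave 9 and 12 UMIs (log2 ratio 0.43, -0.94 to 1.86), the opposite direction to CAF-like cells, and Loxl1 gave 50 and 23 (-1.10, -1.88 to -0.36), against -0.19 in CAF-like cells.

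Over all barcodes, with no cell typing at all, Eln gave 365 and 48 UMIs (9.50 and 1.25 CPM) and Mfap4 164 and 30 UMIs (4.27 and 0.78 CPM), while Fbln5, mostly from melanoma-like cells, gave 5081 and 3984 UMIs (132 and 104 CPM).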
